A study of Mus musculus and Homo sapiens with 24 samples.

Results

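The long arm of human chromosome 8 carries MYC, the gene of a basic helix-loop-helix transcription factor that drives ribosome production, metabolism and cell-cycle entry. The genes considered here were the protein-coding genes that start between 70 and 150 Mb on chromosome 8 (GENCODE annotation, hg38) and reached a mean of at least 5 CPM (counts scaled to the total of gene counts in the library) over the 12 K-562 libraries. SQLE and the genes whose symbols begin with RPL, RPS, NDUF, COX, UQCR or COL were set aside by name. The members were thus chosen by their position and their level in these libraries, after the difference between the lines was known. This gave 161 members among the 58721 human genes counted. The stretch holds 335 protein-coding genes, of which 163 lay under 5 CPM and 11 were set aside by name. At the level threshold, SPAG1 (5.29 CPM) and UBE2W (5.47 CPM) fell just inside and ZNF34 (4.89 CPM) and PDP1 (4.80 CPM) just outside. The first member along the chromosome was NCOA2, at 70.1 Mb, and the last was C8orf33, at 145 Mb.

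K-562 is a human chronic myeloid leukaemia line that carries the BCR-ABL1 fusion and keeps erythroid features. Libraries of mRNA were made from WT and TET2 knockout (KO) cells with either a control hairpin (shControl) or a hairpin directed at MBD6 transcripts (shMBD6), with 3 libraries in each of 4 groups and no further agent beyond the puromycin used to select hairpin carriers. TET2 is an enzyme that oxidises 5-methylcytosine, and MBD6 is a methyl-CpG-binding-domain protein that the study placed with an RNA 5-methylcytosine pathway. For the WT line the methods name both a cell bank and another laboratory, and for the KO line that laboratory, so it is not settled which WT stock was used, and the WT and KO cells may differ in more than TET2. Whether the KO line is 1 clone is not given in the sources used here. The paper speaks of biological replicates, but neither it nor the labels say which cultures the 3 libraries of a group came from, so p-values measure only the spread between these libraries, part of which may be technical. In a bulk library a change in cell makeup and a change in RNA per cell cannot be told apart.

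Segments of the long arm of chromosome 8 are often gained in leukaemias and carcinomas, and MYC is the gene of the segment most studied as an oncogene. Beside MYC the stretch holds genes of other housekeeping systems, among them the cohesin subunit RAD21, the translation factor subunits EIF3E and EIF3H, the poly(A)-binding protein PABPC1 and the DNA repair protein NBN. A gain or loss of DNA changes the template number of all genes on it, and RNA usually follows in the same direction with gene-to-gene differences. DNA copy number was not measured in the libraries used here, so the values below are RNA levels only.

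Gene counts per library ran from 27625013 to 39877202, and no member had a count of 0 (lowest 35). The 16 erythroid and megakaryocytic markers were all detected in every group. Their summed level was 3022 to 3122 CPM in WT shControl, 3853 to 4175 CPM in WT shMBD6, 1779 to 1816 CPM in KO shControl and 1705 to 1722 CPM in KO shMBD6 libraries, so the lines differed in erythroid markers as well, and the part of this in the results below was not tested. Marker sums of other cell types were 4.83 to 14.5 CPM for T cells, 2.63 to 5.43 CPM for B cells, 1.63 to 11.6 CPM for fibroblasts and 36.4 to 53.4 CPM for monocytes, each over 5 genes, and 1010 to 1470 CPM for 5 epithelial markers, which include keratins that K-562 expresses. TET2 RNA did not differ past the threshold between the lines (30.8 and 33.3 CPM with shControl), so these counts do not check the genotype. Levels below are CPM after TMM scaling, which sets each library relative to the bulk of its genes. The added ERCC spike-in RNAs made up 8.72 to 8.81 counts per 1000 gene counts in WT shControl and 3.20 to 3.97 in the other groups, and scaling to them instead lifted the median gene by 1.26 log2 units in KO against WT with shControl. Every difference below is therefore a relative one, set against the bulk of genes in each library.

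As a block, the chromosome 8 genes took a larger share of the RNA in KO than in WT cells. The 161 members together held 1.02 to 1.03% of gene counts in the WT shControl libraries, 1.07 to 1.08% in WT shMBD6, 1.46 to 1.47% in KO shControl and 1.46% in all 3 KO shMBD6 libraries. The KO libraries all lay above the WT libraries, and the hairpin moved the share far less than the line did. This contrast was known when the members were proposed, so the calls between the lines are counted below as a description, beside the share of all genes called by the same fit, and nothing is supported with them.

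**Figure D1:**
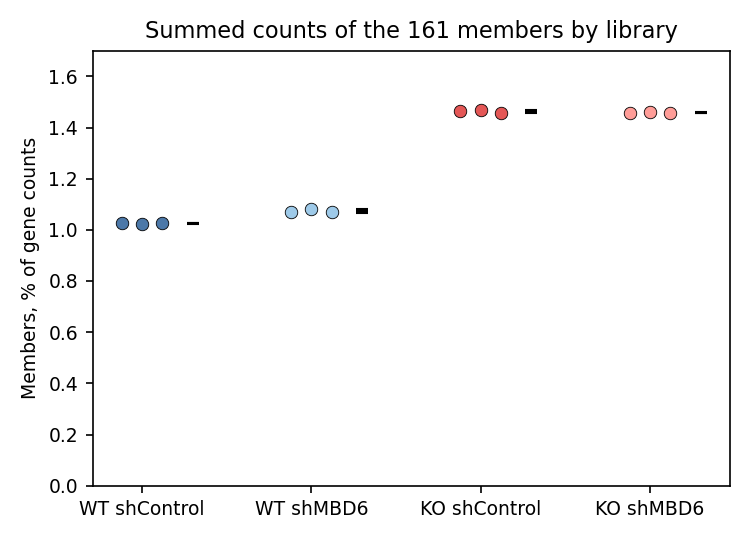
Share of all gene counts taken by the 161 members in each of the 12 libraries, as a percent on an axis that starts at 0. Points are libraries and the bars beside them give the mean and SD of each group of 3. The KO libraries lie at 1.46 to 1.47% and the WT libraries at 1.02 to 1.08%.

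With shControl, the median member was higher in KO cells by 0.48 on the log2 scale, or 1.40-fold, while the median over all 17936 genes tested was 0.00. By the quasi-likelihood test of edgeR, adjusted by Benjamini-Hochberg over all genes, 143 of 161 members passed an adjusted p of 0.05, with 136 higher and 7 lower in KO. Of all genes tested, 42.8% passed, 22.2% higher and 20.7% lower. The members' differences were shifted, and their spread was like that of other genes. Their quartiles lay at 0.32 and 0.62. The quartiles were -0.14 and 0.16 for chromosome 8 protein-coding genes of at least 5 CPM below 70 Mb. For such genes on all chromosomes they were -0.18 and 0.16. Of the members, 121 were within 0.3 of their median and 104 were between 1.2- and 1.6-fold higher, which was not counted for other genes. Called at least 2-fold higher were 5 members, and 215 of the 9805 protein-coding genes of at least 5 CPM. With spike-in scaling, which lifted most genes, 161 members were higher and 0 lower, where 15959 of all 17936 genes were higher and 222 lower. The members' median stayed 0.48 above the median of all genes.

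The shMBD6 libraries of the same lines, which share no library with the shControl comparison, gave a like picture. The median member was 0.49 higher on the log2 scale (1.41-fold), and 140 members passed, 135 higher and 5 lower, where 44.5% of all genes passed, 22.9% higher and 21.6% lower. Across the 161 members, the log2 differences under the 2 hairpins were correlated (Pearson 0.80, Spearman 0.61), given as a description since the points share their lines and their chromosome. Members called higher under both hairpins numbered 125 (13.7% of all genes were), and 2, LRP12 and PLEC, were lower under both (11.9% of all genes). The call of PLEC with shMBD6 was lost in 4 of 6 fits that each left out 1 library (edgeR adjusted p 0.0885 to 0.133). For 111 members all 6 KO libraries lay above all 6 WT libraries (11.1% of all genes), and for 2, LRP12 and ZBTB10, all 6 lay below (8.46%).

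Along the chromosome, the members called higher with shControl lay between TERF1 and the end of the arm. In the 7 windows of 10 Mb below 70 Mb, the medians of the other chromosome 8 protein-coding genes of at least 5 CPM lay between -0.05 and 0.08 on the log2 scale with shControl. Over all 141 of these genes the median was 0.01, and 38 were higher and 36 lower. With shMBD6 the median of 6 of these windows lay between 0.00 and 0.07, and that of the window from 50 to 60 Mb was 0.21 (10 higher and 2 lower of 17). From 70 Mb on, the windows with shControl read 0.46 (13 members), 0.57 (15), 0.57 (23), 0.49 (23), 0.59 (7), 0.53 (17), 0.31 (7) and 0.47 (56). The window from 130 to 140 Mb, just beyond MYC, was the lowest, and it was also the lowest with shMBD6, at 0.15, against 0.38 to 0.62 in the other windows of the stretch, and so below the 0.21 of the window from 50 to 60 Mb. With 7 members, that window rests on few genes.

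At the inner edge stood 3 members that did not share the shift with shControl, of which TRAM1 was called higher with shMBD6. LACTB2, an endoribonuclease of mitochondria, had 88.7, 86.2 and 89.1 CPM in WT shControl, 89.0, 90.2 and 80.5 in WT shMBD6, 71.9, 78.2 and 68.5 in KO shControl and 83.2, 82.2 and 91.8 in KO shMBD6 libraries. Only the KO shControl libraries lay apart, below the rest, at -0.27 (SE 0.0547) on the log2 scale against WT. TRAM1, a part of the protein-translocating channel of the endoplasmic reticulum, differed by -0.15 with shControl and by 0.28 with shMBD6. NCOA2, a coactivator of nuclear receptors, differed by -0.17 and 0.00. The call of TRAM1 with shControl was lost in 4 of 6 fits with a library removed, namely without WT replicate 1 or 3 or KO replicate 2 or 3.

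After a gap of 2.37 Mb without a protein-coding gene at 5 CPM, the next member was TERF1 (73.01 Mb), a telomere-binding protein. It had 22.2, 22.7 and 19.8 CPM in WT shControl, 21.6, 23.2 and 22.9 in WT shMBD6, 30.9, 30.3 and 29.6 in KO shControl and 33.2, 36.6 and 34.4 in KO shMBD6 libraries. All 6 KO values lay above all 6 WT values, and the differences were 0.49 (SE 0.0676) and 0.62 (SE 0.0665) on the log2 scale. The neighbours that follow were the retinol dehydrogenase RDH10 at 0.80, the RNA-binding protein STAU2 at 0.51 and the ubiquitin-conjugating enzyme UBE2W at 0.49 with shControl, which for UBE2W was 0.31 and no longer called without KO shControl replicate 2. ELOC, elongin C, was at 0.26 and TMEM70, an assembly factor of mitochondrial ATP synthase, at 0.12. Leaving out the 3 edge genes kept the median of the remaining 158 members at 0.48, with 136 higher and 4 lower.

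Genes of the stretch that the rule left aside also had medians above 0. The median was 0.61 for 65 tested protein-coding genes under 5 CPM (25 higher, 3 lower), 0.49 for 83 tested non-coding genes (30 higher, 4 lower) and 0.32 for the 8 genes of at least 5 CPM set aside by name (7 higher), all with shControl. Called in either direction were 43.1% of those under 5 CPM and 41.0% of the non-coding genes, near the 42.8% of all genes. Among whole chromosomes, protein-coding genes of at least 5 CPM had medians of 0.55 on chromosome 15, 0.28 on chromosome 8 and 0.14 on chromosome 7, with every other chromosome between -0.17 (X) and 0.02 (5). Whether the counting used strand is not given in the sources used here, and 79 members have an exon that overlaps an exon on the other strand. Their median was 0.44, against 0.52 for the members without such an overlap.

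MYC (ENSG00000136997.17, hg38 chromosome 8, 127735434 to 127742951, plus strand) differed less between the lines with shControl than the median member did. It had 182, 190.2 and 186 CPM in WT shControl, 239.0, 245 and 235 in WT shMBD6, 205, 206 and 212 in KO shControl and 209.9, 201 and 195 in KO shMBD6 libraries. With shControl the KO values all lay above the WT values, whereas with shMBD6 they all lay below them. The log2 difference between the lines was 0.16 (SE 0.0338) with shControl, place 19 from the lowest of the 161 members, and -0.24 (SE 0.0336) with shMBD6, place 4 from the lowest. With spike-in scaling the second value was 0.05, so its direction depends on the scaling.

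The hairpin moved MYC in WT cells. There shMBD6 raised MYC by 0.36 on the log2 scale (SE 0.0337, edgeR adjusted p 3.57e-08), and in KO cells the difference was -0.04 (SE 0.0337, edgeR adjusted p 0.39). The difference between these effects was -0.40 (SE 0.0477, edgeR adjusted p 3.47e-06) and passed in all 12 fits with a library removed, at -0.44 to -0.39. PVT1, the long non-coding RNA gene next to MYC, is no member and was chosen after its values were seen. Its mean levels were 102, 60.9, 82.9 and 59.6 CPM in WT shControl, WT shMBD6, KO shControl and KO shMBD6 libraries, and with shMBD6 it fell by 0.75 in WT and by 0.48 in KO cells on the log2 scale, while MYC did not fall past the threshold in either.

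Of a list of 14 genes of the extended MYC network, which is wider than the genes that bind or oppose MYC, 13 were tested. With shControl 4 were higher and 2 lower in KO, MYC included, where 22.2% of all genes were higher and 20.7% lower (25.1% and 28.9% of protein-coding genes of at least 5 CPM). MAX, the obligate partner of MYC, was at 0.29, and MGA, a MAX partner that represses transcription, at 0.70. MLXIPL stood highest of the list, at 1.13. MXD3, a MAX partner that antagonises MYC, was at -0.73, and MXI1 was the other gene called lower, at -0.28. Whole chromosomes differed in their medians, as given above, and the part of this in these counts was not tested. A list of 28 symbols of genes commonly described as MYC targets held PHB1 under 2 names, and all 27 genes were tested. With shControl 17 were higher and 2 lower in KO (median 0.19). With shMBD6 the numbers were 7 and 4 (median 0.02), where 22.9% of all genes were higher and 21.6% lower (25.7% and 30.8% of protein-coding genes of at least 5 CPM).

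In WT cells shMBD6 raised 16 of the 27 targets and lowered 4 (median 0.15). There 20.4% of all genes rose and 19.2% fell (26.8% and 25.8% of protein-coding genes of at least 5 CPM). In KO cells 6 targets rose and 6 fell (median -0.02), where 18.5% and 16.3% of all genes did (23.9% and 22.2% of protein-coding genes of at least 5 CPM). The difference between the hairpin effects of the lines passed for 21.3% of all genes, 11.0% with a negative value. Among protein-coding genes of at least 5 CPM it passed for 31.0%, 16.1% with a negative value. It passed for 13 targets, 12 of them negative. Examples are CAD, which begins pyrimidine synthesis (-0.51), the nucleolar proteins DDX21 (-0.25) and NCL (-0.26), and the spermidine synthase SRM (-0.31). CDK4, the cyclin D partner kinase, was the exception at 0.37. The member BOP1, a ribosome assembly factor, is also in this list.

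The counts by role that follow describe the members only. With shControl 22.2% of all genes were higher in KO and 136 of the 161 members were, and with shMBD6 22.9% of all genes and 135 members, so a list whose count lies near that of the members as a whole gives no result about its role.

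All 12 members of translation and ribosome making were higher in KO with either hairpin, with medians of 0.64 and 0.55. PABPC1, which coats poly(A) tails and was the highest member per kilobase of exon, had 1468, 1477 and 1483 CPM in WT shControl, 1721, 1721 and 1745 in WT shMBD6, 2362, 2378 and 2265 in KO shControl and 2501, 2525 and 2538 in KO shMBD6 libraries. The KO libraries lay well above the WT libraries, at 0.66 (SE 0.0237) and 0.54 (SE 0.0236) on the log2 scale. The initiation factor subunits EIF3E (0.64 and 0.61) and EIF3H (0.69 and 0.68) were both higher. EEF1D, an elongation factor subunit, was lowest of the list with shControl, at 0.27.

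Of 15 members of DNA replication, repair and the cell cycle, 14 were higher with shControl and 15 with shMBD6 (medians 0.56 and 0.58), and 0 were lower. RAD21, the cohesin subunit that closes the ring around sister chromatids, had 411, 385 and 398 CPM in WT shControl, 471, 474 and 474 in WT shMBD6, 674, 694 and 671 in KO shControl and 716, 694 and 712 in KO shMBD6 libraries. Its groups did not overlap between the lines. NBN, which recruits ATM to double-strand breaks, was at 0.85 with shControl, the transcription factor E2F5 at 0.99 and the helicase RECQL4 at 0.50. CCNE2, cyclin E2, was the one that did not pass with shControl (0.30), and its call with shMBD6 was lost in 3 of 6 fits with a library removed, its value falling to 0.10 without KO shMBD6 replicate 2. The list also holds WASHC5 of the endosomal WASH complex (0.58) and the centrosome protein LRRCC1 (0.56), which fit its name less well.

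Members of RNA synthesis and processing gave 13 of 15 higher with shControl and 14 with shMBD6, with 0 lower and medians of 0.47 and 0.44. POP1, a protein subunit of RNase P and RNase MRP, stood highest at 0.93 with shControl. POLR2K, a subunit shared by the RNA polymerases, read 0.27 and ELOC 0.26 with shControl, and these were the members of the list that did not pass. AGO2, the slicing Argonaute, was at 0.47 with shControl and at 0.08 with shMBD6, where it did not pass.

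In the list of 16 growth control genes, MYC among them, 13 were higher and 0 lower with shControl (median 0.53), and 11 were higher and 1, MYC, lower with shMBD6 (median 0.40). MTDH, metadherin, a membrane-associated protein linked to metastasis, had 207, 195 and 198 CPM in WT shControl, 179, 194 and 177 in WT shMBD6, 320.0, 320.3 and 308 in KO shControl and 265, 271 and 272 in KO shMBD6 libraries. All KO values lay above all WT values. The adaptor protein YWHAZ was at 0.52, the lysosomal protein LAPTM4B at 0.57, focal adhesion kinase PTK2 at 0.63 and the chromatin ATPase ATAD2 at 0.43 with shControl. TP53INP1, a p53-induced autophagy protein, read -0.01, and the phosphatase PTP4A3 read 0.13; neither passed.

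Among 17 members of membrane traffic, 15 were higher and 1, TRAM1, lower with shControl (median 0.47), and 15 were higher and 0 lower with shMBD6 (median 0.46). Metabolism and transport counted 16 higher and 2 lower of 20 with shControl (median 0.39), and 17 and 0 with shMBD6 (median 0.46). Its lower members were LACTB2 and NAPRT, which makes NAD from nicotinic acid and read -0.20, a call that was lost without replicate 2 of WT or of KO shControl. OPLAH, the 5-oxoprolinase of glutathione recycling, stood at 0.89, and CYC1, the cytochrome c1 of respiratory complex III, at 0.17. Ubiquitin and proteolysis counted 8 of 13 higher with shControl (median 0.35) and 11 with shMBD6 (median 0.54), with 0 lower. The list holds the ligases RNF139 (0.35) and PEX2 (0.89), the latter of the peroxisome membrane. It also holds ADCK5 (0.12), a kinase-like protein that does not belong to its theme.

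Of 19 transcription factors and zinc-finger proteins, 15 were higher and 2 lower with shControl (median 0.48), and 13 were higher and 2 lower with shMBD6 (median 0.33). The heat shock factor HSF1 was at 0.43 and the zinc-finger protein ZHX1 at 0.56 with shControl. KLF10, induced by TGF-beta, had 65.0, 67.7 and 64.9 CPM in WT shControl and 48.1, 54.8 and 57.0 in KO shControl libraries, a log2 difference of -0.31 without overlap. ZBTB10, a repressor with a BTB domain, was at -0.19 with shControl, where it did not pass, and at -0.49 with shMBD6. Of the 4 carbonic anhydrase genes of the arm that were listed, 0 reached the level of a member.

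At the top of the shift stood a few genes that rose from low levels. ZFHX4, a large zinc-finger homeobox protein, had 6.70, 7.75 and 8.73 CPM in WT shControl, 5.74, 6.65 and 5.57 in WT shMBD6, 51.9, 52.7 and 50.4 in KO shControl and 41.6, 41.6 and 52.7 in KO shMBD6 libraries. The lines stood far apart, by 2.74 (SE 0.101) and 2.92 (SE 0.103) on the log2 scale. CALB1, the calcium-binding protein calbindin, differed by 2.38 and 1.86 but reached the level of a member only through its KO libraries, and FOXH1, a forkhead factor that works with SMAD proteins, by 1.52 and 2.08. TRIQK followed at 1.23 with shControl, E2F5 at 0.99, the mitochondrial topoisomerase TOP1MT at 0.96 and the nuclease-like TATDN1 at 0.95.

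RBIS, a ribosome biogenesis factor, was the median member, with 35.8, 31.3 and 28.7 CPM in WT shControl and 48.9, 45.4 and 39.3 in KO shControl libraries. C8orf33, the last member, was at 0.61. At the bottom stood LRP12, a receptor related to the LDL receptor, with 28.3, 23.3 and 24.4 CPM in WT shControl, 31.4, 31.5 and 29.1 in WT shMBD6, 20.3, 20.04 and 18.2 in KO shControl and 19.5, 19.3 and 19.1 in KO shMBD6 libraries. Its KO values all lay below its WT values, at -0.37 (SE 0.0765) and -0.67 (SE 0.0753). SPAG1, which helps assemble dynein arms, read -0.31 with shControl and did not pass, and the cytoskeletal linker PLEC read -0.14. With spike-in scaling LRP12, KLF10, SPAG1, LACTB2, NAPRT, ZBTB10, NCOA2, TRAM1, PLEC and TP53INP1 were all above 0 with shControl, by 0.88 to 1.24.

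The hairpin against MBD6, which the choice of members did not use, moved members in both directions, with medians near 0. MBD6 itself fell by 1.12 in WT and by 0.84 in KO cells on the log2 scale. The difference between these effects was 0.28 (SE 0.0763, edgeR adjusted p 0.0104), a weaker fall in KO cells. In WT cells 42 members rose and 37 fell with shMBD6 (49.1% of the members, where 39.6% of all genes and 52.5% of protein-coding genes of at least 5 CPM passed), with a median of 0.01. Over all genes 20.4% rose and 19.2% fell. In KO cells 32 rose and 32 fell (39.8%, where 34.8% of all genes passed, 18.5% up and 16.3% down, and 46.1% of protein-coding genes of at least 5 CPM), again with a median of 0.01. A share near the background is not a result about these genes. Members that rose in both lines numbered 21 (9.96% of all genes did) and 15 fell in both (7.74%). With spike-in scaling 161 members rose and 0 fell in WT cells, where 15437 of all 17936 genes rose and 38 fell. In KO cells 85 members rose and 7 fell, where 6869 of all genes rose and 1055 fell. The median of all genes was then 1.13 in WT and 0.18 in KO cells.

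**Figure D2:**
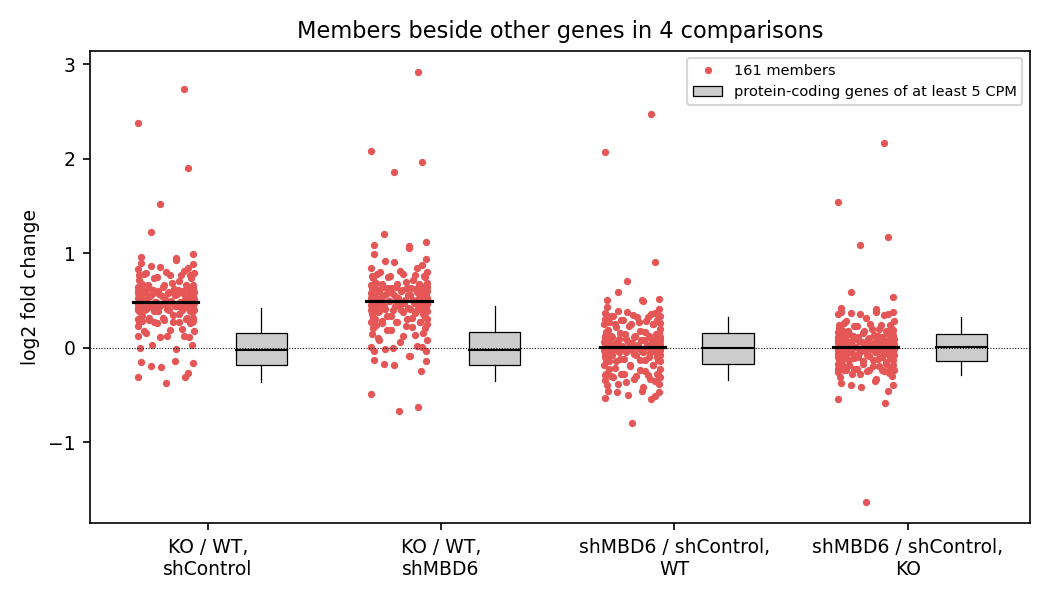
Log2 fold changes of the 161 members (red points, black line at their median) beside the protein-coding genes of at least 5 CPM (grey box from the lower to the upper quartile, line at the median, whiskers to the 10th and 90th percentiles) in 4 comparisons. Most members lie above the box in both comparisons of the lines (medians 0.48 and 0.49), and the members scatter around 0 in both hairpin comparisons (medians 0.01).

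NDRG1, a gene induced by hypoxia and metal stress, lay under 5 CPM in all 6 shControl libraries and was a member only through its shMBD6 libraries, so it had to differ between the hairpins and its values are a description. It had 1.52, 2.31 and 1.22 CPM in WT shControl, 8.93, 9.58 and 10.2 in WT shMBD6, 2.56, 2.33 and 2.64 in KO shControl and 7.56, 8.59 and 17.5 in KO shMBD6 libraries. The shMBD6 libraries lay above the shControl libraries in both lines. The difference was 2.47 in WT (SE 0.265) and 2.16 in KO cells (SE 0.249) on the log2 scale, the latter 1.68 without KO shMBD6 replicate 3, the high library.

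CALB1 also stood higher with shMBD6 in both lines. It had 1.88, 1.73 and 1.53 CPM in WT shControl, 7.77, 6.24 and 7.65 in WT shMBD6, 9.42, 8.75 and 8.63 in KO shControl and 22.5, 23.4 and 32.5 in KO shMBD6 libraries. Within each line the shControl and shMBD6 values did not overlap, and the differences, given as a description since the KO libraries brought the gene above 5 CPM, were 2.07 (SE 0.164) and 1.55 (SE 0.123). HEY1, a Notch-induced repressor, rose by 0.91 (SE 0.141, edgeR adjusted p 2.86e-05) in WT and by 1.08 (SE 0.139, edgeR adjusted p 3.37e-06) in KO cells. In WT cells LY6E, a GPI-anchored surface protein, rose by 0.71 and RDH10 by 0.59, and KLF10 rose in both lines, by 0.36 and 0.54.

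Among the falls in WT cells were FOXH1 by 0.80, the kinesin KIFC2 by 0.53, the kinase-like ADCK5 by 0.54, the thioesterase-family protein THEM6 by 0.51 and PPP1R16A, a phosphatase regulatory subunit, by 0.50 on the log2 scale. These 5 genes start between 140 and 150 Mb. The call of THEM6 was lost without WT shControl replicate 3 or WT shMBD6 replicate 1, and with spike-in scaling all 5 were above 0. In that window of 56 members, which was picked after its values were seen, 10 rose and 22 fell with shMBD6 in WT cells (median -0.12), where 20.4% of all genes rose and 19.2% fell (26.8% and 25.8% of protein-coding genes of at least 5 CPM). Its genes are also rich in G and C. The third of the members with the highest GC content had a median of -0.14, and other protein-coding genes of at least 5 CPM in that GC class had -0.06. The part of GC content in this was not tested.

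The largest fall in KO cells was that of ZFPM2, a cofactor that binds GATA factors and is also called FOG2. It had 8.84, 9.11 and 8.73 CPM in WT shControl, 8.15, 7.79 and 6.00 in WT shMBD6, 15.1, 14.3 and 14.5 in KO shControl and 4.33, 5.02 and 4.85 in KO shMBD6 libraries. ZFPM2 was thus highest in KO shControl and lowest in KO shMBD6, with no overlap between these and any other group. It fell by 1.63 in KO cells (SE 0.111, edgeR adjusted p 4.33e-10), while the WT difference of -0.28 lost its call in 5 of 6 fits with a library removed. PTP4A3 fell by 0.59, E2F5 by 0.54, the mitochondrial membrane protein TMEM65 by 0.46 and C8orf82 by 0.42 in KO cells.

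FBXL6, an F-box protein, read 1.17 on the log2 scale in KO cells, and this rested on 1 library. Its KO shMBD6 values were 15.8, 11.9 and 44.8 CPM against 9.80, 10.5 and 11.97 in KO shControl libraries, and without KO shMBD6 replicate 3 the difference was 0.36. The same library was the highest of its group for NDRG1, CALB1 and SHARPIN. Without it the members called in KO cells still numbered 64. SPAG1 rose by 0.59 in KO cells.

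MBD6 RNA itself fell less in KO than in WT cells, and the part of this in the differences below was not tested. Whether the hairpin acted differently in the lines was tested by the interaction. It passed for 37 members (22.98%, where 21.3% of all genes and 31.0% of protein-coding genes of at least 5 CPM did), 12 positive and 25 negative (10.3% and 11.0% of all genes). It passed with spike-in scaling for 158 members, 0 positive and 158 negative. Of all genes 74.3% passed there, 56 positive and 13265 negative, and the median gene moved to -0.95. Of the members, 3 changed in opposite directions in the lines (3.02% of all genes did). TRAM1 fell by 0.18 in WT and rose by 0.25 in KO cells, AGO2 rose by 0.17 and fell by 0.22, and EEF1D fell by 0.18 and rose by 0.10. The KO call of EEF1D was lost in 4 of 6 such fits, and the WT call of TRAM1 without WT shControl replicate 3.

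ZFPM2 had the largest interaction, -1.35 (SE 0.156, edgeR adjusted p 2.74e-06). TRPS1, a repressor with a GATA-type zinc finger, followed at -0.69 (SE 0.139, edgeR adjusted p 0.00114). It had 10.8, 10.8 and 11.9 CPM in WT shControl, 15.6, 16.5 and 15.8 in WT shMBD6, 14.9, 17.8 and 15.4 in KO shControl and 12.5, 16.4 and 13.8 in KO shMBD6 libraries. WT shControl alone lay below the rest. The interaction was also negative and passed for RAD21 (-0.19) and NBN (-0.31). On the positive side FOXH1 stood at 0.56 (SE 0.149, edgeR adjusted p 0.00943), and EXOSC4, a subunit of the RNA exosome, at 0.48 (SE 0.0999, edgeR adjusted p 0.00155). Both were below 0 with spike-in scaling.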

How the data were processed

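K-562 libraries were sequenced by the study, and the authors trimmed reads with Trimmomatic 0.39, aligned them with HISAT2 2.2.1 to hg38 with ERCC sequences and counted them with HTSeq 0.12.4 on GENCODE 29. The deposited values are raw counts per gene, 1 file per library. The strand setting of the counting is not given in the sources used here. Rows that name no gene were left out of library sizes. They were no feature 10.4 to 13.8%, ambiguous 4.01 to 4.33% and not uniquely aligned 6.04 to 6.43% of all counts, these rows included. Positions, exon lengths and GC content came from GENCODE 44 on hg38, which matched 58207 of 58721 genes. The 12 libraries were fitted together by edgeR 4.0.16 (R 4.3.3; filterByExpr, TMM, quasi-likelihood test, 17936 genes, Benjamini-Hochberg, threshold 0.05); the fit was tested on simulated data. SE is the log2 fold change over the square root of F. ERCC and DESeq2 scaling, the DESeq2 1.42.0 test, other filters, level thresholds and left-out libraries were alternatives. The named genes were MYC, the 10 highest and 10 lowest members between the lines with shControl, the 5 largest called in each direction for each hairpin comparison and the interaction, the genes at the level threshold, the median, first and last members, and genes of the role, MYC and marker lists; others were chosen after their values were seen. The members and lists were chosen with earlier results of these data known. Sequences and the values of some named members are not reported here.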

Additional observations from a re-analysis of the deposited data

Results flagged for a closer look

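The effect of shMBD6 differed between the lines, by edgeR's interaction test, for these members among those named, and the values give the KO minus the WT effect on the log2 scale. It was -1.35 for ZFPM2, -0.69 for TRPS1, -0.48 for LY6E, -0.44 for CPNE3, a calcium-dependent membrane-binding copine, and -0.40 for MYC. It was 0.62 for ZC2HC1A, 0.56 for FOXH1, 0.48 for EXOSC4, 0.43 for TRAM1 and 0.43 for SHARPIN, a subunit of the linear ubiquitin ligase. SHARPIN lost its call in 8 of the 12 fits with a library removed (edgeR adjusted p 0.0590 to 0.103 there), and LY6E in 4 (0.0789 to 0.0878). SHARPIN read 0.20 without KO shMBD6 replicate 3 and was called there. SHARPIN also missed the threshold under DESeq2 (adjusted p 0.141). These 10 were named because their interactions were the largest that passed in each direction. Single samples were not tested as outliers, since every group holds 3 libraries. KO shMBD6 replicate 3 stood furthest from its group across genes. Its chi-square per gene, a measure of the difference between 2 libraries, was 10.1 against replicate 1 and 8.31 against replicate 2. The other pairs within groups ran from 3.03 to 5.65.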

How the results depend on the processing

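Scaling to the ERCC spike-ins moved the median gene. The members' medians became 1.74 and 0.79 between the lines with shControl and shMBD6, and 1.15 and 0.19 for shMBD6 in WT and KO cells. For the interaction the median became -0.99. Called were 161 members for shMBD6 in WT cells (86.3% of all genes) and 158 for the interaction (74.3% of all genes). Relative to the median of all genes, the line medians stayed at 0.48 and 0.48. Under it LRP12 read 0.88, KLF10 0.95, SPAG1 0.95, LACTB2 0.99, NAPRT 1.06, ZBTB10 1.06, NCOA2 1.09, TRAM1 1.11, PLEC 1.11 and TP53INP1 1.24 between the lines with shControl, and MYC 0.055 with shMBD6. For shMBD6 in WT cells FOXH1 read 0.34, ADCK5 0.60, KIFC2 0.61, THEM6 0.63 and PPP1R16A 0.64, in KO cells MYC read 0.14, and the interaction of ZC2HC1A read -0.34, of FOXH1 -0.40, of EXOSC4 -0.48, of TRAM1 -0.53 and of SHARPIN -0.53. With members from 1 CPM the hairpin medians were 0.032 and 0.026. With TMM-scaled CPM the summed level of the members was 1.41 times as high in KO as in WT with shControl (1.43 by CPM), and with shMBD6 over shControl 1.06 in WT (1.05) and 1.02 in KO cells (0.996). Leaving out 1 library gave medians of 0.48 to 0.51 and 0.46 to 0.49 between the lines and 0.0022 to 0.032 for shMBD6 in WT cells. For shMBD6 in KO cells they ran from -0.0024 to 0.024, on both sides of 0, with -0.0038 from the 6 libraries of KO cells alone and -0.0059 over members from 73 Mb, an alternative chosen after seeing the data. TP53INP1, at -0.01, ran from -0.066 to 0.029 and turned to 0.029 without WT shControl replicate 3 and to 0.017 without KO shControl replicate 3. Calls kept in all these fits numbered 134 of 143 and 131 of 140 between the lines, 61 of 79 and 44 of 64 for the hairpin and 27 of 37 for the interaction. Replicate numbers did not pair the samples, since same-numbered libraries correlated at -0.14 to 0.19 and were the best match in 3 of 36 cases. With the replicate block 142 and 138 members were called between the lines, 78 and 60 for the hairpin and 36 for the interaction. MYC with shControl read 0.15 to 0.18 over left-out libraries and 0.16 with the replicate block. The alternatives other than spike-in scaling changed no direction of a named value apart from TP53INP1. With 3 libraries a group, differences near the spread between libraries could not be detected.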
